A study of Mus musculus with 46 samples.

Results

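Allele counts of 11430 autosomal genes, out of 15499 genes in the tables, were compared between the reciprocal crosses at postnatal day 5 (P5) in the dorsal raphe nucleus, the brainstem nucleus that holds much of the brain's serotonin neurons. The libraries were 14 of 46, from female F1 hybrids of the C57 and CAST strains, 7 of the cross named F1i and 7 of the cross named F1r, and the labels name no treatment or transgene in any group. The mother's strain in F1i and F1r is not in the labels, nor do they say whether each library came from 1 animal's tissue, so p-values measure the spread between these libraries. Genes entered by rule when they lay on an autosome and had a mean of 20 or more counts, both alleles summed, over the 14 animals. For each animal the log2 ratio of CAST over C57 counts was taken. The parental effect is 0.5 times the log2 ratio in F1i less that in F1r, both as fitted to the counts by the model of the test. Where 1 allele has few counts, it can differ from the value that the mean of the animals' ratios would give. A positive effect means that CAST carried a larger share in F1i than in F1r. The same measure was taken in 7 libraries of each cross at P15 and 9 of each cross from adults. The adult libraries carry 2 numbers each, 3 first numbers with 3 libraries per cross, and the labels do not say what they stand for. If libraries with a first number in common share an animal or a litter, the p-values that use adults are too small.

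Imprinted genes are expressed from the allele of 1 parent only. The choice is set by DNA methylation laid down in the egg or the sperm at an imprinting control region, and it often covers several neighbouring genes, some on the maternal and some on the paternal allele. In reciprocal F1 hybrids the strain that carries the active allele therefore swaps with the cross, whereas a sequence difference between strains keeps the same allele ahead in both crosses. Many imprinted genes are expressed in the brain, and for some of them the imprint is limited to neurons or to 1 transcript. A list of 84 known imprinted genes in 24 clusters was used, with the allele that textbooks give as active. Meg3, a noncoding RNA known for expression from the maternal allele, serves below as the mark of one direction and Peg3, a zinc finger gene known for expression from the paternal allele, as the mark of the other.

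Promoter windows of 5 genes whose counts came almost wholly from 1 allele are shown because the results turn on such genes. Each holds the 250 bases before the gene's start in RefSeq (build GRCm38.p6), 5′ to 3′ on the gene's strand, and capitals mark the hexamer TGCCGC or its reverse complement GCGGCA, the core of the site of ZFP57, a protein known to keep methylation at imprinting control regions. Peg3 (chr7:6730420-6730669, minus strand) and Usp29 (chr7:6730333-6730582, plus strand) start head to head, so their windows share 163 bases, and CAST supplied nearly all counts of both genes in F1r and almost none in F1i.
Peg3: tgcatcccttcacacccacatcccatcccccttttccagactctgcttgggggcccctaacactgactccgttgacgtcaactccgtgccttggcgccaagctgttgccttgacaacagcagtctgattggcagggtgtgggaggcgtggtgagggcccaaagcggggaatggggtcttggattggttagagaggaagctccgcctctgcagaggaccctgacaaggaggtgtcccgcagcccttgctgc
Usp29: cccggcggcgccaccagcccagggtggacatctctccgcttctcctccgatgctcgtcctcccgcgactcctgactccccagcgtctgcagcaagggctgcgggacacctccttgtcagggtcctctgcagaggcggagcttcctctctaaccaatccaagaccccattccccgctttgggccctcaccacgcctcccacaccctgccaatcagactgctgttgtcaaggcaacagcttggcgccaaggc
Zdbf2 (chr1:63200108-63200357, plus strand) and Plagl1 (chr10:13090582-13090831, plus strand) took the direction of Peg3, and Meg3 (chr12:109540746-109540995, plus strand) the opposite one.
Zdbf2: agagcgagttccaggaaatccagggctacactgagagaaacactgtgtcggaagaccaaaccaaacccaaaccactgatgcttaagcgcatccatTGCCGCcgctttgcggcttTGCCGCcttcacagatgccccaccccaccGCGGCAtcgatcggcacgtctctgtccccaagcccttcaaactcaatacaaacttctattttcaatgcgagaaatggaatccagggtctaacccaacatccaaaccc
Plagl1: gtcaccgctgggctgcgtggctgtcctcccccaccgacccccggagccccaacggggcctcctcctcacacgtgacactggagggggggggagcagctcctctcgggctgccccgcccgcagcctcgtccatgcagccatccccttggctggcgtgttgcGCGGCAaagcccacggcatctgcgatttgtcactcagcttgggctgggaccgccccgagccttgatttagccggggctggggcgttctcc
Meg3: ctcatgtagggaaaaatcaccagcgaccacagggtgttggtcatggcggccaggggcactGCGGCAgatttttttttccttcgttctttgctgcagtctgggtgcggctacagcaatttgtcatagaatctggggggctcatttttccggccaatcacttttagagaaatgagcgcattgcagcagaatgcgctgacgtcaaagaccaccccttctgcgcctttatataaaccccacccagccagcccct
The Zdbf2 window shown held 3 such hexamers, the Plagl1 and Meg3 windows shown 1 each, and the Peg3 and Usp29 windows 0. Zdbf2 and Meg3 each had another RefSeq start, whose window is not shown and held 0. Across RefSeq windows of the same 250 bases, 4 of 16 windows (25%) of near-monoallelic genes held the hexamer. The share was 14.08% for the windows of all autosomal genes tested and 8.68% for all RefSeq windows. Only 12 of the 22 near-monoallelic genes had a window in the table. A match is a description of the letters and not a measured binding site.

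A parental effect was found for 95 autosomal genes at an adjusted p of 0.05, 54 with the CAST share higher in F1i and 41 with it lower. They are 0.831% of the genes tested, 0.472% in the direction of Meg3 and 0.359% in that of Peg3. Calls came from the quasi-likelihood test of edgeR with Benjamini-Hochberg adjustment over all 12070 genes tested, of which 327 (2.71%) were called. That family includes 397 X-linked genes, of which 227 were called, and with p adjusted over autosomal genes alone 78 of the 95 were called. In 75 autosomal genes (0.656%) no F1i animal's log2 ratio, with 0.5 added to each count, overlapped any F1r animal's. The median effect over all autosomal genes tested was 0.001 on the log2 scale, and 96.5% of them had an effect under 0.2 in size.

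Many of the 95 genes had another called gene nearby. Joined where they were within 1 Mb of each other, they formed 41 groups on 15 of the 19 autosomes, and 17 groups of several genes held 71 of them. Chromosome 7 held 23 called genes, chromosome 2 held 15 and chromosome 6 held 14, while chromosomes 5, 8, 14 and 16 held none. By class, 44 were on the imprinted list, 31 were other genes within 1 Mb of a listed gene, and 20 lay further away or on chromosomes without a listed gene. Their median effect sizes were 3.95, 0.27 and 0.22 on the log2 scale. The distances come from the GENCODE annotation of build GRCm38, since the submitters' notes name mm9 and no coordinates are in the tables.

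**Figure D1:**
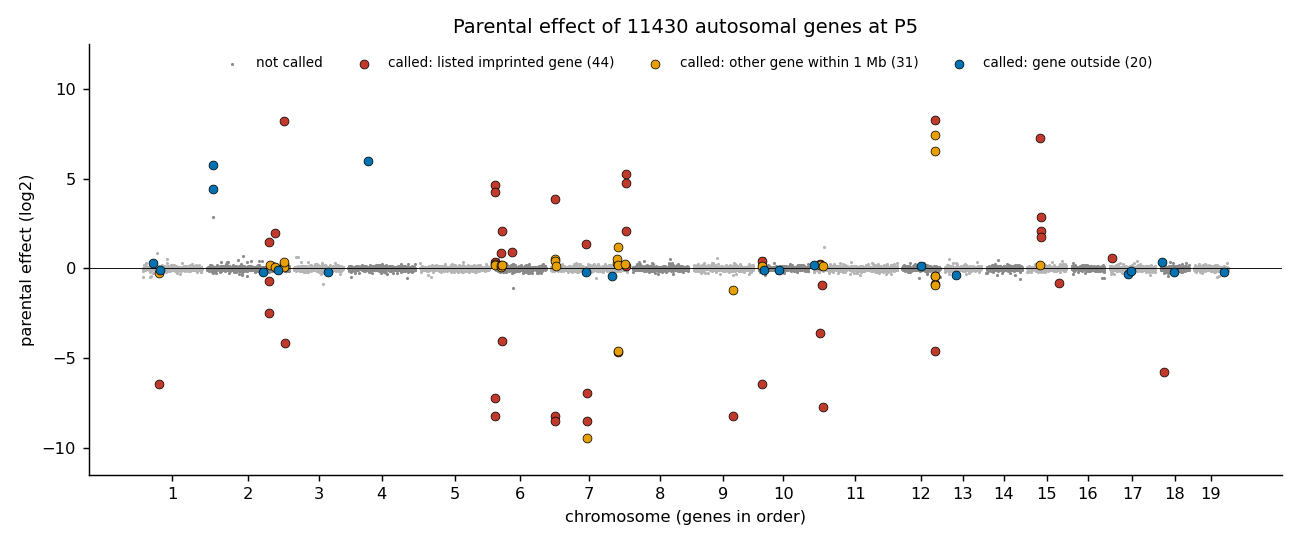
Parental effect at P5 (log2, vertical axis) of 11430 autosomal genes in order along chromosomes 1 to 19, with 1 point per gene. Grey points were not called, red points are the 44 called genes of the imprinted list, orange the 31 called genes within 1 Mb of one and blue the 20 called genes elsewhere; most large effects are red and stand in narrow stacks.

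Of the 84 listed genes 63 were in the tables, 54 had enough counts to be tested and 44 were called (81.5% of those tested), in 21 of the 24 clusters. Among genes listed as maternally expressed, 17 of the 22 tested went in the direction of Meg3 and 1 in that of Peg3. Among genes listed as paternally expressed, 18 of 21 went in the direction of Peg3 and 2 in that of Meg3. Genes whose allele depends on tissue or transcript split 4 and 2 of 11. The list names genes long known to be imprinted, many of them from brain, so its count is not independent evidence that this tissue is imprinted. All 44 calls held in each of the 14 fits that left out 1 animal.

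Meg3 had a CAST share of 98.8% to 99.6% in the F1i animals (median 99.4%) and of 0.056% to 0.21% in the F1r animals (median 0.16%). The 2 crosses sat at opposite ends of the scale with no animal between them, and the effect was 8.24 ± 0.046 (SE). Here and below, the SE of an effect is its size divided by the square root of the test's F value. For large effects it can be too small. The same fit gave the strain effect, the mean over the crosses, an SE of 0.092 for Meg3 and 0.161 for Peg3, against 0.046 and 0.064 for the parental effect. Kcnk9, which encodes a background potassium channel, gave 98.61% to 100% in F1i (median 100%) and 0.0% to 2.33% in F1r (median 0.82%). Cdkn1c, an inhibitor of cyclin-dependent kinases, gave 94.87% to 100% in F1i and 0.0% to 13.51% in F1r on about 54 and 34 counts per animal. Calcr, the calcitonin receptor, gave 95.99% ± 1.7 (SD, n = 7) in F1i and 3.6% ± 0.88 in F1r. Asb4, a subunit of ubiquitin ligases, gave 94.74% ± 1.67 and 4.81% ± 0.8. Zim1, a zinc finger gene beside Peg3, gave 93.06% ± 1.15 and 5.76% ± 1.18.

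H19, a noncoding RNA known for maternal expression, was less even. Its CAST share was 99.18% to 100% in F1i (median 99.54%) and 1.64% to 26.92% in F1r (median 11.59%), so the crosses were not mirror images. Every F1r animal had at least 1 CAST count of H19, and no F1i animal had more than 2 C57 counts. Its strain effect, the mean of both crosses' fitted log2 CAST over C57 ratios, was 2.47.

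Genes in the direction of Peg3 formed the larger near-monoallelic set, defined by a mean CAST share of 95% or more in one cross and 5% or less in the other. Of the 18 listed genes that met it, 13 had the low CAST share in F1i. Peg3 ranged from 0.1% to 0.29% in F1i (median 0.18%) and from 98.61% to 99.89% in F1r (median 99.69%), with an effect of -8.21 ± 0.064. Usp29, a ubiquitin-specific peptidase gene, ranged from 0.0% to 0.65% in F1i and from 99.09% to 100% in F1r. Peg10, derived from a retrotransposon, ranged from 0.11% to 0.53% and from 99.48% to 99.86%. Its neighbour Sgce, epsilon-sarcoglycan, had medians of 0.55% and 99.24%.

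Rasgrf1, an exchange factor for Ras, gave medians of 0.14% in F1i and 99.75% in F1r. Magel2, a gene of the Prader-Willi region, gave medians of 0.0% and 99.48%, and 1 of the 7 F1i animals had any CAST count. Plagl1, a zinc finger transcription factor, gave medians of 0.89% and 99.0%, and Impact, a regulator of the GCN2 kinase, 0.77% and 96.88%. The noncoding RNA A230006K03Rik had no C57 count in F1r among 251 counts, which allows a C57 share of up to 1.2% by counting error. Zdbf2 ranged from 0.0% to 1.63% in F1i and from 92.57% to 99.91% in F1r, where 1 animal had a single C57 count and the others 12 to 62. Dlk1, a ligand related to the Notch ligands, gave 3.62% ± 1.1 and 95.42% ± 2.2, and Inpp5f, an inositol phosphatase, 3.77% ± 0.4 and 96.17% ± 0.68. Zrsr1, an intronless splicing factor gene, gave 0.12% ± 0.33 and 99.59% ± 1.1.

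Another set of listed genes swapped alleles only in part. Grb10, an adaptor that binds insulin-type receptors, had 6.39% to 9.77% CAST in F1i and 91.81% to 94.72% in F1r, and Mest, a hydrolase family gene, 4.03% to 7.09% and 90.4% to 97.45%. Copg2, which encodes a coat protein of Golgi vesicles and overlaps Mest on the opposite strand, went the other way, with 78.95% to 86.17% and 13.76% to 25.16%. Ago2, the argonaute that carries microRNAs, had 83.36% to 90.9% and 9.95% to 12.54%, and Trappc9, a trafficking complex subunit, 77.7% to 82.5% and 15.78% to 20.99%. Blcap, whose intron holds the imprinted gene Nnat, had 73.98% to 78.31% and 14.11% to 21.45%. In none of these 6 genes did the crosses overlap.

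H13, a signal peptide peptidase, and Mcts2, an intronless gene inside it, moved in opposite directions. H13 had 73.9% to 77.37% CAST in F1i and 26.62% to 29.39% in F1r, whereas Mcts2 had 5.0% to 17.39% and 76.19% to 85.0% on about 30 counts per animal. The 2 genes overlap on the same strand, and how reads in the shared stretch were assigned is not given, so their minority shares are uncertain. Bcl2l1, an inhibitor of apoptosis in the same neighbourhood, took the side of Mcts2 with 33.65% to 39.67% and 58.22% to 64.67%. Ube3a, a ubiquitin ligase known for maternal expression in neurons, had 64.22% to 72.73% CAST in F1i and 21.38% to 27.35% in F1r. Its effect of 1.36 ± 0.069 left a minority of counts on the other allele in every animal. Herc3 gave 64.99% ± 0.99 and 34.81% ± 2.4, and Klhdc10, a kelch domain gene, 63.99% ± 0.7 and 35.44% ± 1.17.

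Several listed genes had effects under 1. Igf2r, the receptor that clears insulin-like growth factor 2, had 53.01% to 61.59% CAST in F1i and 30.64% to 43.84% in F1r. Ppp1r9a, neurabin, had 55.71% to 59.9% and 42.94% to 46.99%. Ddc, which makes serotonin from its precursor and lies beside Grb10, had 44.23% to 47.68% and 35.86% to 41.18%, in the direction opposite to Grb10. The effect of Ddc was 0.23 ± 0.03 and its strain effect -0.47, so C57 carried more counts than CAST in both crosses. Osbpl5 (effect 0.14 ± 0.034) and Phactr2 (0.39 ± 0.086) were the listed genes whose animals overlapped between crosses while the test called them. Slc38a4, an amino acid transporter, had 36.76% to 44% and 52.78% to 80.77% on means of 39.9 and 35.1 counts (-0.82 ± 0.13). Chrac1, a chromatin accessibility factor that overlaps Ago2, had a larger effect (1.74 ± 0.16), with 66.67% to 76.67% and 0.0% to 29.03%.

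**Figure D2:**
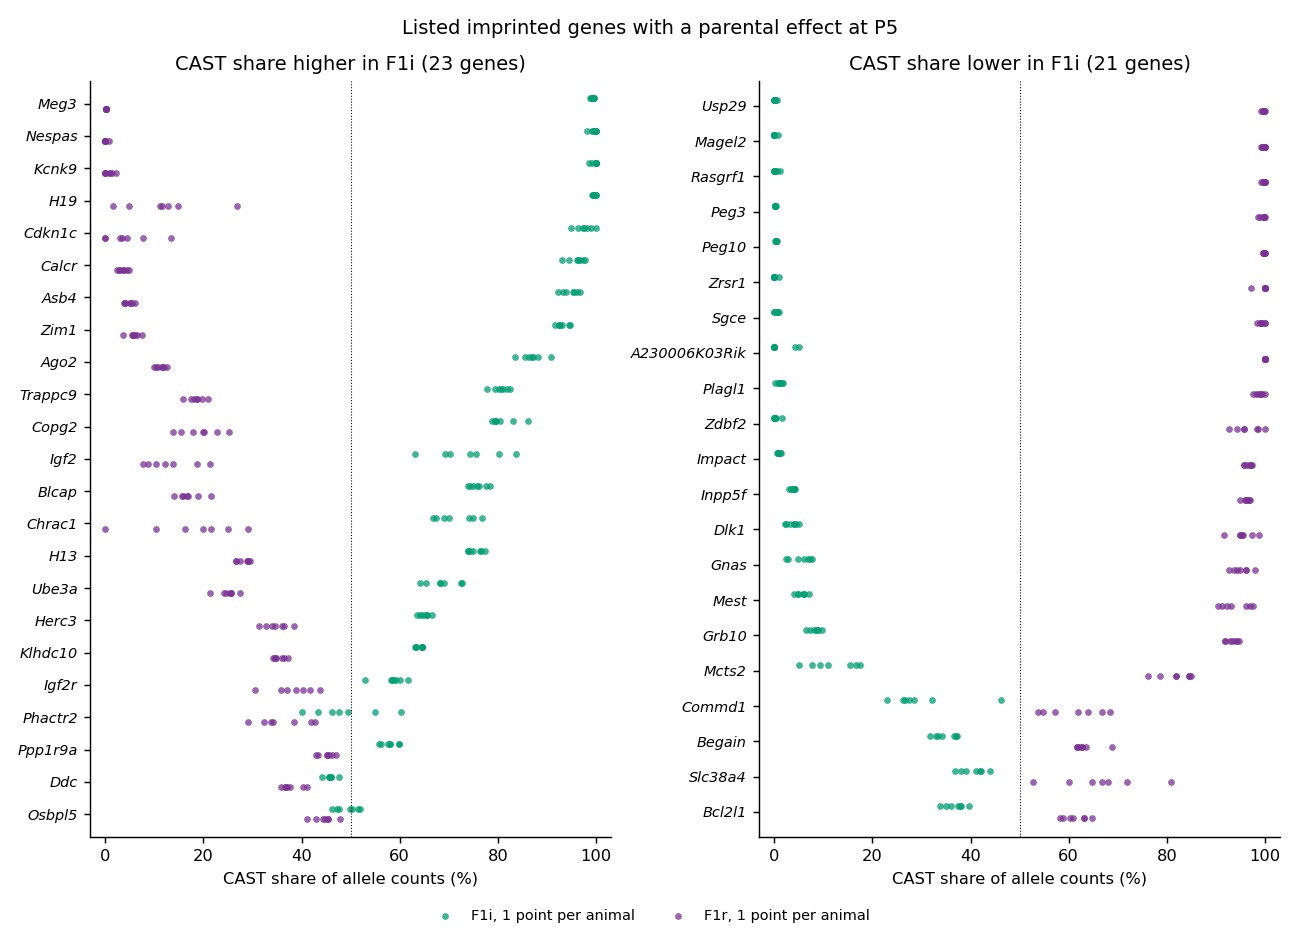
CAST share of allele counts (%, horizontal axis) of the 44 called genes of the imprinted list, 23 higher in F1i on the left and 21 lower on the right, with 1 point for each of 7 F1i (green) and 7 F1r (purple) animals. From Meg3 and Usp29 at the top to Osbpl5 and Bcl2l1 at the bottom, the distance between the crosses narrows while the spread within a cross stays mostly small.

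For 3 listed genes the direction was not that of the textbook allele. Igf2, a growth factor known for paternal expression in most fetal tissues, had 63.16% to 83.72% CAST in F1i and 7.69% to 21.43% in F1r, the direction of Meg3 and of its neighbour H19. Commd1, listed as maternal, had 22.94% to 46.25% in F1i and 53.7% to 68.49% in F1r, the direction of the paternally listed Zrsr1, which lies inside it on the opposite strand. Nespas, a paternally listed antisense transcript, had 98.11% to 100% and 0.0% to 0.71%, the direction of Meg3. Gnas, which encodes the stimulatory G protein subunit and overlaps Nespas on the opposite strand, had 2.46% to 7.62% and 92.62% to 98.01%, the direction of Peg3. The strand of counting is not given in the sources used here, so reads of overlapping transcripts on opposite strands cannot be told apart, which touches Nespas with Gnas, Commd1 with Zrsr1, and Copg2 with Mest. The same holds for minority shares given above where a listed gene overlaps another gene on the opposite strand: Ube3a with Snhg14, Blcap with Nnat, Herc3 with Nap1l5, Igf2r with Airn, Igf2 with Igf2os, and Ago2 with Chrac1.

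The other 10 listed genes tested did not pass. Casd1 had 51.34% ± 1.59 in F1i and 52.06% ± 2.14 in F1r, Slc22a3 57.25% ± 1.63 and 55.85% ± 2.53, Nap1l4 48.1% ± 2.32 and 49.0% ± 2.38, and Tssc4 49.92% ± 1.28 and 48.61% ± 4.44. Cd81 had 47.03% ± 1.07 and 45.33% ± 1.23, with an adjusted p of 0.247. Pon2, a paraoxonase, had 4.15% ± 1.66 and 3.87% ± 1.43, an imbalance by strain in both crosses. Atp10a, Dcn and Htr2a had means of 29 to 42 counts per animal and effects of -0.12 ± 0.14, 0.16 ± 0.15 and -0.35 ± 0.14, with an adjusted p of 0.375 for Htr2a. Rtl1, a retrotransposon-derived gene on the strand opposite several microRNAs, had 43.44% ± 6.24 and 52.01% ± 8.19. Its effect was -0.21 ± 0.12 (adjusted p = 0.734), and the unknown strand of counting touches it as well.

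Beyond the list, 31 of the 289 tested genes within 1 Mb of a listed gene were called (10.7%), 24 in the direction of Meg3 and 7 in that of Peg3. Their effects were mostly small, with 22 of 31 under 0.5 in size. The share of genes called was 17.8% (8 of 45) up to 0.1 Mb from a listed gene, 19.1% (9 of 47) from 0.1 to 0.25 Mb, 10.8% (8 of 74) from 0.25 to 0.5 Mb, and 1.69% (2 of 118) from 0.5 to 1 Mb. From 1 to 2 Mb it was 0.752% (2 of 266), from 2 to 5 Mb 0 of 529 genes were called, and beyond 5 Mb 0.201% (14 of 6977). On chromosomes without a listed gene it was 0.121% (4 of 3315).

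**Figure D3:**
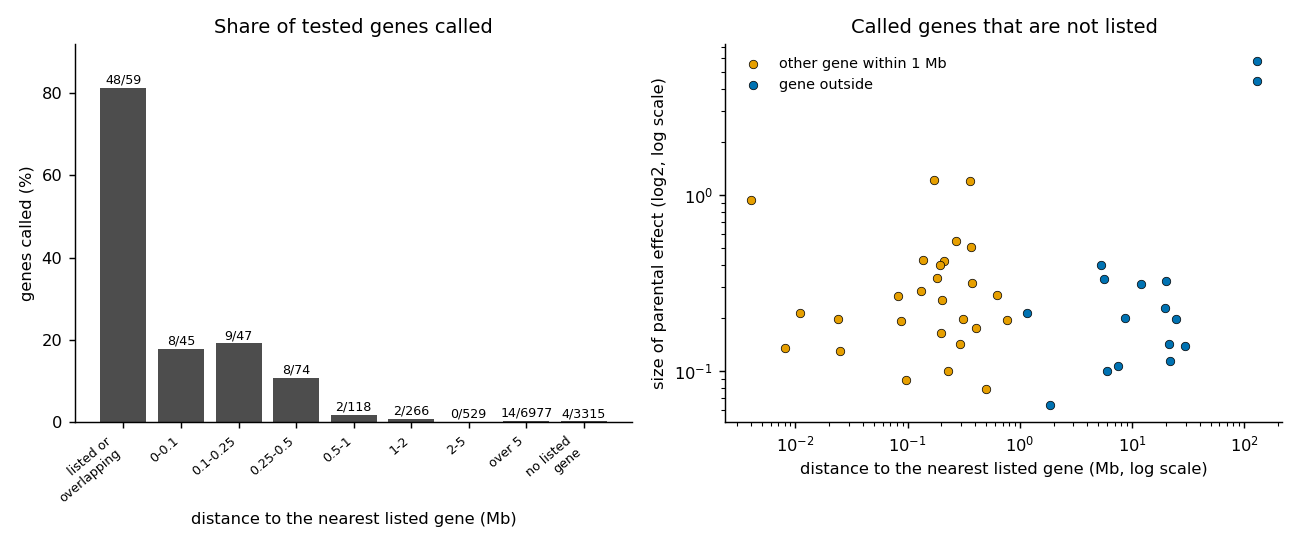
Left, bars give the percentage of tested genes called at P5 by distance to the nearest listed imprinted gene, with called over tested above each bar; the share drops from 81.4% for listed or overlapping genes to 1.69% at 0.5 to 1 Mb. Right, size of the parental effect (log2, log scale) against that distance (Mb, log scale) for called genes that are not listed, leaving out the genes that overlap a listed one and the genes on chromosomes without one.

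Among the neighbours, 4 were near-monoallelic, and they overlapped transcription units of the list. Mir1188, a microRNA gene, and Gm24564, a small nucleolar RNA gene, lie inside Rian, a noncoding RNA downstream of Meg3. In F1r neither had a CAST count among 308 and 158 counts, which allows CAST shares of up to 0.974% and 1.9% by counting error, and in F1i their CAST shares were 96.83% to 100% and 92% to 100%. Gm38393, which overlaps Snrpn and Snhg14 in the Prader-Willi region, had no CAST count among 1082 in F1i, a limit of 0.277%, and 99.4% to 100% CAST in F1r. Gm16044, a processed pseudogene within Inpp5f on the same strand, had 2.46% ± 2.42 and 95.69% ± 2.47, close to the values of Inpp5f. A fitted effect of a gene with an allele at 0 in a whole cross depends on the prior count and is not given.

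On chromosome 12 a run of genes on the Begain side of Dlk1 took the direction of Peg3. Wars, the tryptophanyl-tRNA synthetase, had 37.13% to 41.38% CAST in F1i and 53.16% to 55.28% in F1r (effect -0.43 ± 0.021), and its neighbour Wdr25 28.57% to 53.85% and 57.14% to 80.0% (-0.93 ± 0.15). Slc25a29, a mitochondrial amino acid carrier, had 44.04% to 48.46% and 55.37% to 65.62% (-0.40 ± 0.063), and Begain, a synaptic protein of the list, 31.69% to 37.17% and 61.59% to 68.88% (-0.85 ± 0.037). In these 4 genes the 7 F1i animals were all below the 7 F1r animals. Wars and Wdr25 overlap on opposite strands.

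Near Inpp5f on chromosome 7, 4 neighbours went against Inpp5f. Tgfb1i1, a focal adhesion protein, had 64.38% to 89.09% CAST in F1i and 28.57% to 47.73% in F1r, an effect of 1.20 ± 0.11 and among the neighbours the strongest in the direction of Meg3 outside listed transcription units. Armc5 had 54.9% to 66.67% and 36.21% to 50.88%, BC017158 54.37% to 56.64% and 44.57% to 52.78%, and 9130023H24Rik, which overlaps Armc5 on the opposite strand, 53.16% to 70.0% and 39.18% to 56.38%. The first 3 did not overlap between crosses and 9130023H24Rik did.

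Ankrd34c, beside Rasgrf1 on chromosome 9, shared the direction of Rasgrf1 with 16% to 30.3% CAST in F1i and 52.63% to 87.5% in F1r (effect -1.22 ± 0.15). Adam23, an adhesion protein of neurons beside Zdbf2, had 46.91% to 51.03% and 57.8% to 60.8% (-0.28 ± 0.021) and shared the direction of Zdbf2. Around Gnas, 3 neighbours took the direction of Meg3. Stx16, a syntaxin of the Golgi, had 50.81% to 55.99% and 39.21% to 43.8%, and the pseudogene Ppp4r1l-ps 56.56% to 61.73% and 46.86% to 53.93%. Vapb, a protein of membrane contact sites, differed by less, with 48.55% to 52.46% and 45.11% to 49.74%.

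Around Peg10 and Sgce, Vps50, a subunit of a vesicle tethering complex, had 56.73% to 61.31% CAST in F1i and 44.36% to 54.27% in F1r, and Bet1, a vesicle fusion protein, 52.78% to 61.23% and 46.69% to 59.0%. Beside Klhdc10 and Mest the effects of Ube2h, Zc3hc1 and Tmem209 were 0.089 ± 0.025, 0.21 ± 0.057 and 0.20 ± 0.053. In the Peg3 neighbourhood, Gm20715 had 61.13% to 64.75% and 45.2% to 52.62% (0.42 ± 0.035), Clcn4, a chloride transporter, an effect of 0.14 ± 0.032, and the zinc finger gene Zfp78 one of 0.55 ± 0.15 on about 25 counts per animal. These 8 neighbours all took the direction of Meg3.

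Single neighbours of other clusters gave small effects too. Cobl, an actin nucleator beside Grb10, had 51.8% ± 1.51 in F1i and 46.4% ± 2.59 in F1r, in the direction of Ddc, and Cct4, a chaperonin subunit beside Commd1, 54.38% ± 1.4 and 49.88% ± 1.87. Fam135b, beside Kcnk9, had 52.5% ± 1.33 and 45.71% ± 2.61, and Ifitm10, beside H19, 55.14% ± 4.95 and 46.35% ± 2.84. Rpn2 beside Blcap, Pofut1 beside Bcl2l1 and Fuca2 beside Phactr2 had effects of 0.10 ± 0.026, 0.17 ± 0.051 and 0.13 ± 0.036. Of the 31 neighbours, 10 lost the call in at least 1 of the 14 fits without an animal, among them Pofut1 in 10 fits, Ube2h and Fuca2 in 9 each, and Ifitm10 without F1i animal 1 alone (adjusted p = 0.0787, range 0.00698 to 0.0787). With p adjusted over autosomal genes alone, 10 neighbours were not called, and DESeq2 left 17 of the 31 uncalled.

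Outside the known neighbourhoods 20 of 11087 genes were called (0.18%), 7 with the CAST share higher in F1i and 13 with it lower. With p adjusted over autosomal genes alone 13 were called, and DESeq2 called 6, 5 of them among the 20. The number ranged from 16 to 26 over the fits without 1 animal. Of the 20, 3 are pseudogene loci that passed the count filter through F1i alone, so their summed counts had to differ. Their allele ratios in F1r rest on means of 2.0 to 15.57 counts per animal, so these 3 calls are set apart. Of the other 17, 5 did not overlap between the crosses, against 75 (0.656%) of all 11430 autosomal genes tested. The 17 were called from these same counts, so that number adds no separate support. Of the 17, 6 held their call in all 14 fits without 1 animal and 10 were called with p adjusted over autosomal genes alone. DESeq2 called 2 of them, Gabra5 and Nhlrc1.

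The 3 pseudogene loci are Gm13340 and Gm13339 on chromosome 2 and Gm11410 on chromosome 4, which were counted far more often in F1i than in F1r. Gm13340 had 27507 to 58776 CAST counts and 9 to 28 C57 counts in the F1i animals. In F1r it had 2 to 62 CAST counts and 0 to 4 C57 counts, with 62 of them in 1 animal and at most 9 in the others. Gm13339 had 2526 to 5160 CAST counts in F1i and Gm11410 3280 to 7307, and in F1r neither had more than 6 counts of either allele in any animal. The cross effect on the summed counts was 11.14, 10.14 and 11.02 on the log2 scale. How reads matching several places were treated, and how reads were given to an allele, is not stated for these loci. The allele ratio in F1r rests on single reads, and 1 F1r animal for Gm13339 and 2 for Gm11410 had no count at all.

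Gabra5 (ENSMUSG00000055078), the alpha 5 subunit of the GABA-A receptor on chromosome 7, had the smallest adjusted p among the other 17 genes over 1 Mb from any listed gene. Its CAST share was 42.74% to 46.78% in F1i (median 46.02%) and 51.95% to 54.67% in F1r (median 52.95%), with no overlap. The effect was -0.21 ± 0.027 (edgeR, adjusted p = 5.03e-08), in the direction of Peg3. The gene lies 1.146 Mb from Atp10a, just past the limit of 1 Mb, and overlaps Gm9962 on the opposite strand.

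Nhlrc1 (ENSMUSG00000044231), which encodes the ubiquitin ligase malin and lies on chromosome 13, which has no listed gene, had 42.77% to 51.75% CAST in F1i (median 48.61%) and 53.62% to 70.63% in F1r (median 60%). All 7 F1i animals were below all 7 F1r animals, with an effect of -0.37 ± 0.068 (adjusted p = 0.000136). Ahi1 (ENSMUSG00000019986), a protein of the base of the cilium on chromosome 10, had a narrower difference at higher depth, with 49.68% to 51.47% in F1i and 52.45% to 55.12% in F1r. Its effect of -0.11 ± 0.015 (adjusted p = 7.06e-07) rests on means of 3049 and 3092 counts per animal, without overlap. Gstm5 (ENSMUSG00000004032), a glutathione transferase on chromosome 3, had 25.37% to 33.0% and 32.45% to 36.36%, an effect of -0.18 ± 0.04, and C57 carried more counts in both crosses.

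Crls1, the cardiolipin synthase gene on chromosome 2, had 40.25% to 52.47% CAST in F1i and 52.92% to 58.26% in F1r (effect -0.23 ± 0.051, adjusted p = 0.00285). Cabin1, a calcineurin-binding protein on chromosome 10, had 46.53% to 47.91% and 48.69% to 55.16% (-0.11 ± 0.028, adjusted p = 0.00867). Neither gene's crosses overlapped. Sh3pxd2a, a scaffold of podosomes on chromosome 19, had 41.68% to 51.07% and 48.36% to 57.93% (-0.22 ± 0.041, adjusted p = 0.000201), with overlap.

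The other 10 outside genes had adjusted p values from 0.0107 to 0.0397 and overlapped between crosses. In the direction of Meg3 were Cavin2, a coat protein of caveolae (0.31 ± 0.078), Armc4, a motile cilium protein (0.33 ± 0.095), Sfi1, a centrin-binding protein (0.20 ± 0.051), and Vti1b, a vesicle fusion protein (0.14 ± 0.035). In the direction of Peg3 were Arhgap17 (-0.40 ± 0.1), Cyp4f13, a cytochrome P450 (-0.33 ± 0.092), Pcdhb20, a protocadherin of the clustered family (-0.20 ± 0.053), Col11a2, a collagen chain (-0.14 ± 0.039), Ttpal (-0.10 ± 0.028) and Idh1, the cytosolic isocitrate dehydrogenase (-0.064 ± 0.018). Idh1 lies 1.844 Mb from Zdbf2 and shared its direction. Sfi1 had 88.32% to 91.35% CAST in F1i and 82.73% to 89.4% in F1r, a difference that keeps CAST ahead. Pcdhb20, Gstm5 and Cyp4f13 belong to families of close copies whose reads may be split between members. Vti1b overlaps Arg2, Arhgap17 overlaps Lcmt1 and Crls1 overlaps Gm14104 on the opposite strand, and Sfi1 overlaps Drg1 on its own strand, so their counts are uncertain in that respect.

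An exact permutation test, two-sided, of the 7 against 7 log2 ratios gave p = 0.0519 for Vti1b and p values from 0.00117 to 0.0175 for the other outside genes whose crosses overlapped. It uses the same counts as the call and is unadjusted. For genes without overlap it can give nothing but its smallest value, 0.000583. Just inside the threshold stood Col11a2, Ttpal, Armc4, Cyp4f13 and Idh1, with adjusted p values of 0.0257, 0.0287, 0.0368, 0.037 and 0.0397. Just outside it stood Dop1b, Zfp536, Kif5c, Gsto1 and Il18, with effects of -0.072, -0.181, -0.028, -0.131 and 0.309 and adjusted p values of 0.0521, 0.0603, 0.0676, 0.0766 and 0.0792. Genes on either side of the limit had effects of like size.

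**Figure D4:**
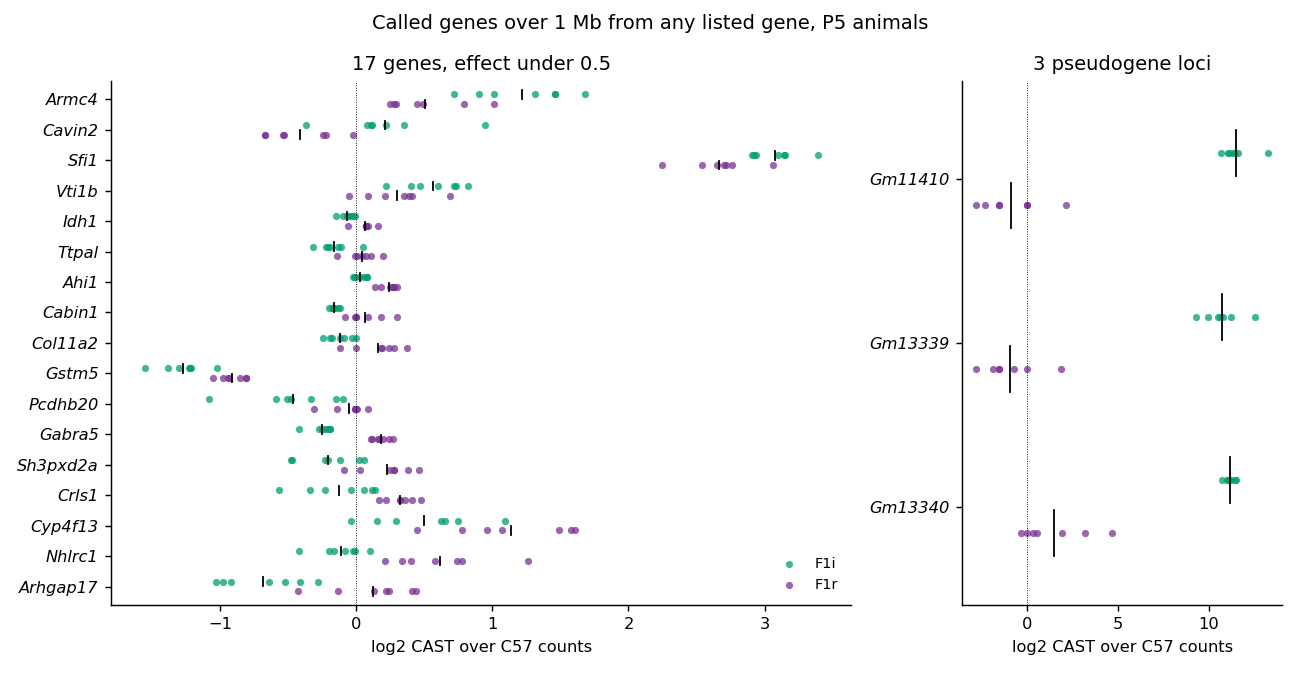
Log2 ratio of CAST over C57 counts (horizontal axis, pseudocount 0.5) in each of 7 F1i (green) and 7 F1r (purple) animals for the 20 called genes over 1 Mb from any listed gene, with black ticks at the cross means. On the left the crosses of 17 genes lie less than 1 log2 unit apart and mostly overlap, Gabra5, Nhlrc1, Ahi1, Crls1 and Cabin1 excepted; on the right the 3 pseudogene loci lie near 11 in F1i.

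The calls of P5 were then followed in the animals of the other ages. At P15, where 69 autosomal genes were called (0.607% of those tested), 41 of 43 listed genes, 15 of 30 neighbours and 6 of 20 outside genes called at P5 were called again in the same direction. In adults, with 108 called (0.903%), these numbers were 41 of 42, 19 of 30 and 9 of 20. Without the 3 pseudogene loci the outside genes called again were 3 of 17 at P15 and 6 of 17 in adults. None of the 95 was called in the opposite direction at either age. The sign alone was kept by 15 of the 20 outside genes at P15 and by 16 in adults.

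Of these 17 genes, Gstm5, Nhlrc1 and Ahi1 were called at all 3 ages. The pseudogene loci were called at all 3 as well. In the order P5, P15, adult, Nhlrc1 had effects of -0.37 ± 0.068, -0.55 ± 0.08 and -0.42 ± 0.042. Those of Ahi1 were -0.11 ± 0.015, -0.069 ± 0.017 and -0.12 ± 0.014, and those of Gstm5 -0.18 ± 0.04, -0.14 ± 0.036 and -0.16 ± 0.024. Gabra5, Pcdhb20 and Sfi1 were called at P5 and in adults, with adult effects of -0.22 ± 0.027, -0.25 ± 0.05 and 0.21 ± 0.054. At P15 they were -0.17 ± 0.05, -0.19 ± 0.056 and 0.20 ± 0.075, and missed the threshold (adjusted p = 0.172, 0.156 and 0.487). Cavin2, Crls1, Cabin1, Sh3pxd2a, Arhgap17 and Vti1b had adjusted p values of 0.877 or more in adults.

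**Figure D5:**
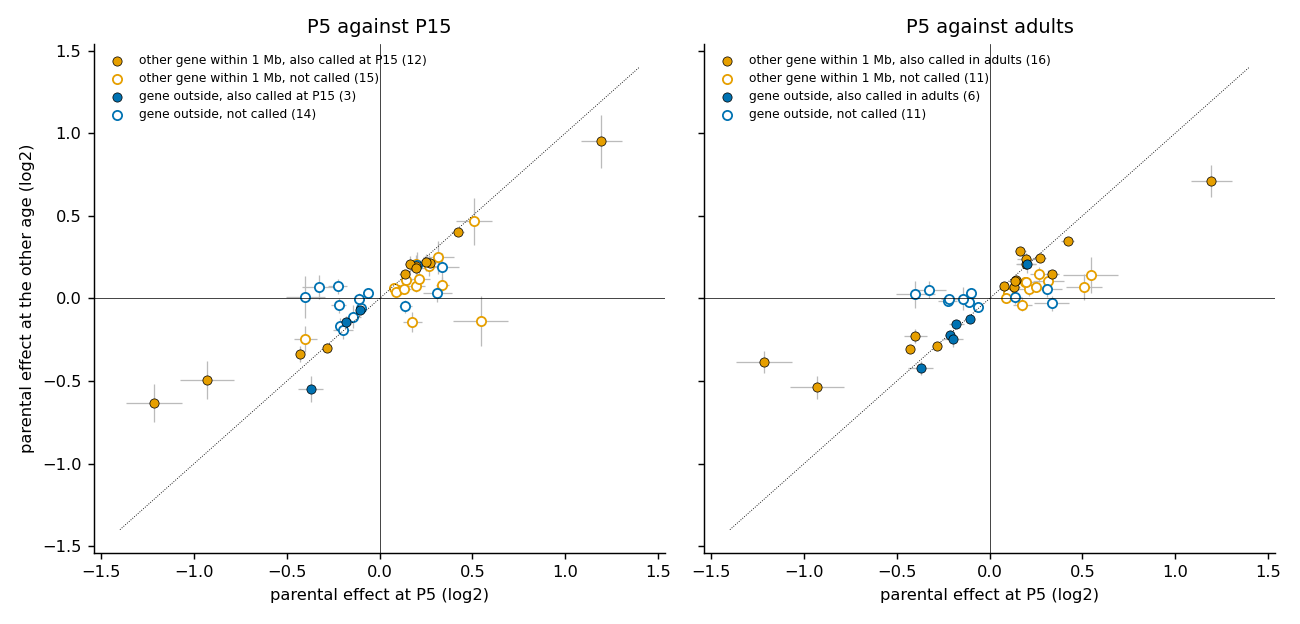
Parental effect (log2) at P5 (horizontal axis) against P15 (left) and adults (right) for the called neighbours (orange) and outside genes (blue) with an effect under 1.5 at P5; filled points were called again, open ones were not, bars are SE and the dotted line marks equal effects. Nhlrc1 and Gabra5 lie near the line in adults, while several open blue points lie near 0 on the vertical axis.

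The change of the effect between ages was tested in 1 model of all 46 libraries. From P5 to P15 it differed for 19 autosomal genes (0.166%), and from P5 to adults for 27 (0.236%). Among the 44 called listed genes, 16 changed by P15, 10 of them towards a smaller effect, and 23 by adult age, 13 of them towards a smaller effect. Mest moved from -4.02 ± 0.081 at P5 to -1.49 ± 0.09 at P15 and -0.63 ± 0.071 in adults. Inpp5f moved from -4.66 ± 0.027 to -2.89 ± 0.028 and -2.02 ± 0.019, and Blcap from 1.98 ± 0.039 to 0.86 ± 0.048 and 0.62 ± 0.035. The effect of Grb10 widened from -3.60 ± 0.055 to -5.0 ± 0.06 and -5.67 ± 0.049, and that of Zim1 from 3.88 ± 0.046 to 4.86 ± 0.059 and 5.18 ± 0.051.

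Of the neighbours, Stx16 changed by P15 (0.34 to 0.08) and Ankrd34c by adult age (-1.22 to -0.38). Of the outside genes, Crls1 changed by P15 (-0.23 to 0.07), and Sh3pxd2a (-0.22 to -0.002) and Gm13339 changed by adult age. Rtl1, not called at P5, had an effect of 1.59 at P15 (adjusted p = 1.97e-12) and of -0.95 in adults (9.38e-08). Its change from P5 passed the test at both ages. The strand of counting is unknown, so reads of the opposite-strand microRNA genes cannot be told apart from those of Rtl1. Animals of different ages are different animals, and the labels give no shared litter or day.

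The level of both alleles together was compared between the crosses at P5 as a separate readout. Of the 95 genes, 19 differed, against 1.14% (139) of the autosomal genes tested. Among outside genes 6 were higher in F1i, and 1, Ahi1, was lower by -0.14 ± 0.032. These 6 include the 3 pseudogene loci, which passed the count filter through F1i alone and so had to differ here. Among listed genes 4 were higher in F1i and 7 lower. H19 was higher in F1i by 1.61 ± 0.097 on the log2 scale, Cdkn1c by 0.53 ± 0.12, Mest by 0.27 ± 0.067 and Plagl1 by 0.18 ± 0.042. Ube3a was lower by -0.45 ± 0.069, Rasgrf1 by -0.31 ± 0.036, Nespas by -0.28 ± 0.072 and Impact by -0.26 ± 0.032. Meg3 (-0.03), Peg3 (-0.005) and Usp29 (-0.03), whose counts changed allele with the cross, did not pass the test for their summed counts.

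The strain effect of the same fit was called for 6515 autosomal genes (57%). It was called for 17 of the 44 listed genes, 14 of them towards C57, for 20 of the 31 neighbours and for 11 of the 20 outside genes. Zdbf2 (-1.61), Meg3 (-1.17) and Impact (-0.97) were among the listed genes with more C57 counts on average over the crosses. Such a value in a near-monoallelic gene compares the residual counts of the silent allele in each cross as much as the active ones.

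Summed counts were 5100560 to 10319139 per F1i library and 5389944 to 7544469 per F1r library, and CAST carried 51.16% to 51.38% of them in F1i and 50.14% to 50.47% in F1r. The SE of the effect had a median of 0.111 for genes of 20 to 100 counts, against 0.015 for Ahi1. Of the serotonin neuron markers, 10 of 11 were in the tables and all were detected, with summed levels of 446 to 553 CPM (counts relative to the library's sum) in F1i and 476 to 661 in F1r, and 3 were lower in F1i. All 7 myelin markers in the tables were lower in F1i, with summed levels of 1820 to 2150 CPM against 2440 to 3040. Markers of choroid plexus (34.0 to 51.8 CPM in F1i, 32.2 to 81.4 in F1r), meninges (17.9 to 29.1 and 19.7 to 24.7) and cerebellum (178 to 226 and 174 to 218, nearly all Calb2) gave no call among the 4, 3 and 1 that had enough counts to be tested. In bulk tissue fewer cells of a type and less RNA per cell cannot be told apart, and the part of these differences in the allele ratios was not tested.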

How the data were processed

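Libraries of dorsal raphe RNA in 46 samples were prepared, per the labels' protocols, with an RNeasy column kit and a TruSeq kit and sequenced as 50 base single-end reads. Per the submitters' processing notes, Novoalign and the mm9 build were used. The authors deposited whole-number counts per gene for each allele of each animal, 92 columns in all. Read assignment to alleles, multiple matches and strand are not given in the sources used here. Symbols, chromosomes and distances came from GENCODE (GRCm38) by Ensembl identifier for 14969 of 15499 genes.

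The main test was edgeR 4.0.16 (R 4.3.3), quasi-likelihood, with 1 column per animal and allele, a term per animal, and the total of both alleles as library size. Tested were genes whose 2 alleles together had a mean of at least 20 counts, with calls at a Benjamini-Hochberg adjusted p of 0.05. Summed counts were tested with TMM scaling. The fits were tested on simulated data. The members and lists were chosen with earlier results of these data known. Named are all tested genes of the imprinted list and all other called autosomal genes. Alternatives were DESeq2 1.42.0, limma 3.58.1 on log2 ratios (pseudocount 0.5 or 1), other filters and scaling, a replicate block, other distances and leaving out each animal. Count limits for an allele at 0 used 3 counts and cover counting error only. No library was left out, and same-cross libraries differed by more than sampling noise (chi-square per degree of freedom 1.23 to 2.35).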

Additional observations from a re-analysis of the deposited data

Results flagged for a closer look

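Single animals stood far from the others of their cross in the log2 CAST over C57 ratio of 14 of the 190 gene and cross pairs examined (7.37%), past the critical value of Dixon's test for 7 animals. Chance alone would mark about 1 in 20 groups, and no cause was tested. In F1i the distant animal was at 13.26 for Gm11410 (others 10.67 to 11.6), -9.52 for Peg10 (others -8.34 to -7.48), -0.07 for Ube2h (others 0.05 to 0.13), -0.42 for Gabra5 (others -0.27 to -0.19), -6.54 for Magel2 (others -9.07 to -8.06), -6.27 for Zrsr1 (others -7.29 to -6.97), 3.23 for Gm24564 (others 4.75 to 5.78) and 0.17 for Igf2r (others 0.48 to 0.68). In F1r it was at 9.46 for Zdbf2 (others 3.63 to 6.05), -0.06 for Idh1 (others 0.07 to 0.16), 5.61 for A230006K03Rik (others 6.15 to 6.44), 4.75 for Zrsr1 (others 6.71 to 7.33), 1.14 for Begain (others 0.68 to 0.81) and -5.93 for Chrac1 (others -2.98 to -1.24). Most of the wide gaps belong to near-monoallelic genes, where 1 or a few reads of the silent allele set the ratio.

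The parental effect of called genes differed between ages by the test of the difference itself (edgeR, model of all 46 libraries, adjusted p of 0.05). The values are the effect at the later age minus that at P5, on the log2 scale, and a positive value shrinks a negative effect. By P15 the positive changes were Crls1 0.3, Gnas 1.3, Ppp1r9a 0.16, Mest 2.53, Herc3 0.2, Zim1 0.98, Inpp5f 1.77 and Commd1 0.66. The negative ones were H13 -0.41, Blcap -1.12, Stx16 -0.25, Klhdc10 -0.22, Ube3a -1.02, Grb10 -1.4, Begain -0.93, Dlk1 -0.81, Trappc9 -0.71 and Ago2 -0.68. By adult age the positive changes were Gm13339 2.19, Bcl2l1 0.31, Gnas 1.97, Calcr 1.44, Ppp1r9a 0.17, Mest 3.39, Copg2 0.46, Herc3 0.64, Zim1 1.3, Inpp5f 2.63, Ankrd34c 0.83, Rasgrf1 1.15, Commd1 0.46 and Sh3pxd2a 0.22. The negative ones were H13 -0.51, Mcts2 -1.26, Blcap -1.36, Asb4 -0.48, Klhdc10 -0.48, Ddc -0.13, Grb10 -2.06, Begain -0.55, Dlk1 -1.27, Trappc9 -0.5, Ago2 -0.93 and Slc38a4 -1.56.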

How the results depend on the processing

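The count of 95 autosomal genes was 62 with DESeq2, of which 61 were among the 95, and stayed within 1.5 times under the other alternatives: 86 and 89 with limma (pseudocount 0.5 and 1), 108 without a count filter, 85 at a mean count of 50 or more, 96 with TMM factors per allele column and 78 with p adjusted over autosomal genes alone. Leaving out 1 animal gave 85 to 99. The 20 genes outside known neighbourhoods became 6 with DESeq2 (5 shared), 13 with p adjusted over autosomal genes alone, 16 to 26 without 1 animal, 22 or 18 with a limit of 0.5 or 2 Mb, and 17 without the 3 pseudogene loci, an alternative chosen after seeing the data. The cause of the DESeq2 counts was not tested. Cavin2 lost its call without F1i animal 2 alone (adjusted p = 0.0657, range over the 14 fits 0.00307 to 0.0657) and Cabin1 without F1r animal 1 alone (0.0556, range 0.00458 to 0.0556); Idh1 lost it in 10 of 14 fits, Armc4 in 9, Ttpal in 8, Cyp4f13 in 7, Col11a2 in 6, Pcdhb20 in 4, Vti1b in 3, and Sfi1 and Arhgap17 in 2 each. Changes from P5 to P15 numbered 38 with limma against 19, and from P5 to adults 31 against 27. Of the 95 genes, 19, the 3 pseudogene loci among them, had a cross effect on summed counts, 16 with DESeq2. None of the 95 called genes reversed its direction under an alternative that tested it, and the uncalled listed genes were not followed in this way.

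Replicate numbers of the labels did not pair the animals: same-number correlations of deviations ran from -0.0192 to 0.0314, and 2 of 14 animals correlated best with their own number. With the replicate block the counts were 102 autosomal genes, 27 outside genes and 20 cross effects on summed counts. Depth limits genes of 20 to 100 counts most, with a median SE of 0.111.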
